A study of Mus musculus with 4 samples.

Results

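The urothelial transcription factors described here are the 10 genes Trp63, Foxa1, Grhl3, Elf3, Pparg, Gata3, Gata2, Klf5, Ehf and Sox2. They were chosen by name from 18193 genes that the arrays measure, with earlier results of these data known. The gene lists used below were chosen in the same way, so shares set beside those of all genes are a description only. Each member was read from every probe set whose only annotated symbol is that gene. There were 19 such probe sets. Expression was measured in 4 samples of adult male mouse ureter (replicates 1 to 4, numbers without order) at Theiler stage 28, from FVB/N mothers mated to fathers with the SMGA/EGFP transgene. In those mice green fluorescence reports smooth muscle gamma actin (Actg2), and it guided dissection of the tube between kidney and bladder. Every sample carried the transgene, no control group exists, and the labels do not say whether each sample came from its own animal, so p-values measure only the spread between these samples. Labelled RNA, after 2 rounds of amplification, was read on Affymetrix MOE430 arrays, 1 per sample, and having only 4 of them limits how precisely any level is known. Means are given ± SD over 4 samples unless stated.

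The urothelium is the stratified lining of the urinary tract, with basal, intermediate and superficial (umbrella) cells. Trp63, the p53 relative p63, maintains the basal cells of stratified epithelia. Pparg, a fatty acid sensing nuclear receptor, works with Foxa1 and the GATA factors in urothelial differentiation, while Grhl3, Klf5 and the ETS factors Elf3 and Ehf act in the later layers and in the epithelial barrier. Because the ureter was taken whole, fewer cells of a type and less RNA per cell cannot be told apart.

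A level is log2(intensity + 16), for the gene's probe set with the highest mean. Background was set on each array at the 95th percentile of 85 probe sets for olfactory, vomeronasal and taste receptors, which gave thresholds of 7.25, 6.99, 7.57 and 7.36 in replicates 1 to 4. A gene was above background where limma's moderated one-sided test of the mean over 4 samples had a Benjamini-Hochberg adjusted p under 0.05 for any of its probe sets. Probe sets bind with different strength, so levels of different genes were not ranked. Genes known from other organs were high in some of the samples. In replicate 3 all 10 skeletal muscle genes exceeded the threshold, while replicates 1, 2 and 4 had 1, 1 and 3. All 8 liver genes did so in replicates 1 and 3, against 1 each in replicates 2 and 4. The seminal vesicle gene Svs4 was high in replicates 1 and 2, and the gland gene Prol1 in replicates 2, 3 and 4. The smooth muscle list had 9 of 10 genes above background. The 3′ to 5′ signal ratio of Actb came to 8.23, 19.8, 5.27 and 4.43 in replicates 1 to 4, and the Gapdh ratio to 34.4, 36.9, 31.6 and 18.8. Such ratios depend on RNA integrity and on amplification, which cannot be told apart here.

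All 10 transcription factors were expressed in the ureter. Each was above background, beside 57.8% of all named genes, and each lay over the array's threshold in all 4 samples, beside 58.4% of named genes. The largest of the 10 adjusted p-values was 1.06e-05, that of Pparg. The count was also 10 without replicate 1, 2, 3 or 4 in turn. Of the 19 probe sets 14 were above background, beside 40.9% of all probe sets tested.

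**Figure D1:**
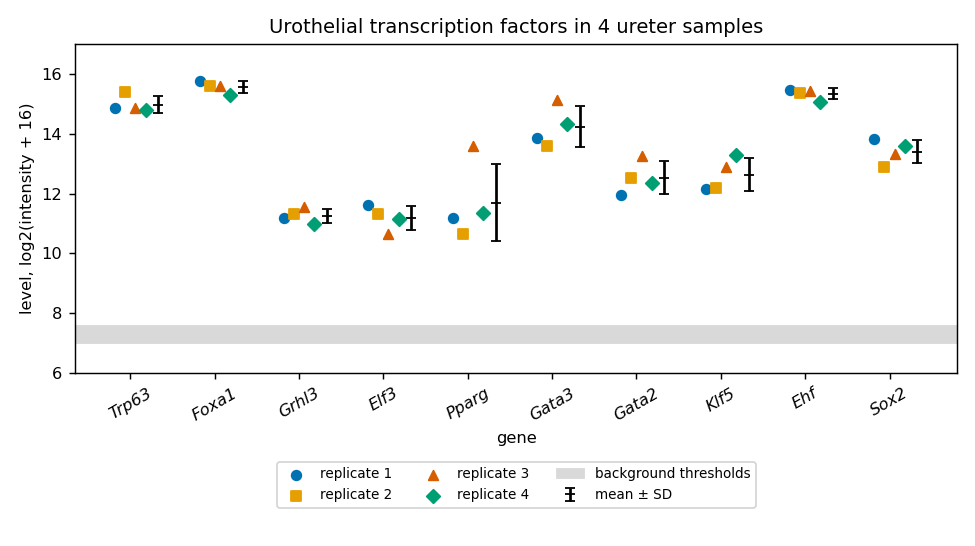
Level, as log2(intensity + 16), of each of the 10 genes in the 4 ureter samples, with the mean ± SD in black and the range of the 4 arrays' background thresholds (6.99 to 7.57) as a grey band. Every point lies above the band, and Pparg has the widest scatter, with replicate 3 at 13.58.

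The factor of the basal layer, Trp63, had 14.86, 15.39, 14.85 and 14.79 in replicates 1 to 4, a mean of 14.97 ± 0.28 (SD, n = 4; limma adjusted p = 2.09e-08). Replicate 2 was the high sample and the other samples lay within a narrow band. These values come from probe set 1418158_at alone. The gene's other probe sets told less: 1459581_at averaged 8.36 ± 0.83 (SD, n = 4) and was above background (limma adjusted p = 0.0156), while 1452027_a_at at 6.72 ± 0.86 and 1451876_a_at at 5.29 ± 0.91 (SD, n = 4) were not. Trp63 makes several proteins from separate starts and by splicing, and which of them each probe set detects is not given in the sources used here.

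Genes linked to Trp63 in basal cells of stratified epithelia were expressed beside it. Of 14 measured basal genes 11 were above background (78.6%, beside 57.8% of all named genes). Krt5, a basal keratin, averaged 14.31 ± 0.44 and, like Trp63, was highest in replicate 2 at 14.95. Perp, a desmosomal protein gene and p63 target, averaged 15.29 ± 0.22, with replicate 2 highest at 15.60. Krt14, the partner of Krt5, had 10.74, 13.30, 8.65 and 11.72, a wide range that also peaked in replicate 2. Krt15, another keratin of basal cells, was steady at 16.14 ± 0.22 and was highest in replicate 1 at 16.38. Of the 11 basal genes above background 5 were highest in replicate 2, namely Krt5, Krt14, Perp, Itga6 and Col17a1, beside 25.3% of all genes above background. The other 6 peaked elsewhere: Krt15, Dst and Pdpn in replicate 1, Itgb4 in replicate 3, and Lamb3 and Jag2 in replicate 4. A peak in replicate 2 was not particular to basal genes. Among genes above background, 9 of 9 smooth muscle, 8 of 11 endothelial and 0 of 10 superficial genes were highest in replicate 2. The basal genes that did not pass were Krt17, Sfn and Bcam. Epidermis also depends on Trp63, and 3 of 8 epidermal genes were above background, the keratins Krt1 at 8.81 ± 0.81 and Krt10 at 9.87 ± 0.17 and the cornified envelope gene Lor at 8.96 ± 0.96.

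Foxa1, a pioneer factor that opens chromatin for nuclear receptors, had 15.75, 15.59, 15.61 and 15.29 in replicates 1 to 4. Its mean of 15.56 ± 0.19 (SD, n = 4) had a smaller SD than all but 10.9% of the genes above background. That ranking takes in genes of all levels, and bright genes vary less. The SD that limma expects was 0.27 at this level, against 0.46 at the level of Elf3. Replicate 4 was the lowest sample by a small margin, which was gone after quantile normalization, where replicate 4 lay 0.03 above the other samples. Its relatives Foxa2 at 7.43 ± 0.70 and Foxa3 at 5.77 ± 0.50, factors of endoderm and liver, were not above background (limma adjusted p = 0.739 and 1).

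Pparg differed most between the samples. Its level was 11.19, 10.66, 13.58 and 11.34 in replicates 1 to 4, with a mean of 11.69 ± 1.29 (SD, n = 4), and its only probe set, 1420715_a_at, is of the kind that matches several transcripts of the gene. Replicate 3 stood above the other samples, which lay within 1 log2 unit of each other, and was 5.74-fold above their mean on the log2(intensity + 16) scale. Without replicate 3 the mean was 11.06 ± 0.36 (SD, n = 3), and Pparg was still above background (limma adjusted p = 6.99e-07). Scatter was tested by an F test of each variance against the variance limma expects at that level. Pparg did not pass, with an unadjusted p of 0.0170 and a Benjamini-Hochberg adjusted p of 0.681 over the 18421 probe sets above background (limma prior).

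The GATA zinc finger factors were highest in the same sample. Gata3, a factor of luminal epithelia, T lymphocytes and the nephric duct, had 13.85, 13.59, 15.14 and 14.34 in replicates 1 to 4, a mean of 14.23 ± 0.68 (SD, n = 4). Replicate 3 was the high sample, 2.32-fold above the mean of the others, and replicate 4 was next. Gata2, known from endothelium, mast cells and the urogenital tract, had 11.94, 12.53, 13.27 and 12.36, a mean of 12.52 ± 0.55 (SD, n = 4), with replicate 3 again on top, 1.99-fold above the others. Its second probe set, 1428816_a_at, was also above background and had 9.34, 9.11, 10.93 and 9.25, so both probe sets of Gata2 were highest in replicate 3. Without replicate 3 the means were 13.93 ± 0.38 for Gata3 and 12.28 ± 0.30 for Gata2 (SD, n = 3). The unadjusted p of the spread test was 0.0599 for Gata3 and 0.232 for Gata2 (limma prior, n = 4), and neither passed after adjustment (0.841 and 0.996).

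The sequences around the starts of Pparg, Gata3, Gata2 and the grainyhead factor Grhl3 are shown because these 4 members were highest in replicate 3. RefSeq's table of promoters on build GRCm38.p6 holds 10 windows for 7 of the 10 genes, each running from 250 bases before to 50 after an annotated start. Trp63, Klf5 and Ehf are not among them. The windows were searched on both strands for 5 sets of letters, and matches are in capitals. Letters for grainyhead, PPAR, ETS and SOX factors were also searched at first and were left out after their matches had been seen. GATA factors are known to bind TGATAA and the related letters AGATAA, and forkhead factors such as Foxa1 bind TGTTTAC. The GC box was searched as GGGCGG and the TATA box, a start element, as TATAAA. No matches overlap in the windows printed, which read 5′ to 3′ on the gene's strand.
Gata3 at chr2:9878551-9878850 (-): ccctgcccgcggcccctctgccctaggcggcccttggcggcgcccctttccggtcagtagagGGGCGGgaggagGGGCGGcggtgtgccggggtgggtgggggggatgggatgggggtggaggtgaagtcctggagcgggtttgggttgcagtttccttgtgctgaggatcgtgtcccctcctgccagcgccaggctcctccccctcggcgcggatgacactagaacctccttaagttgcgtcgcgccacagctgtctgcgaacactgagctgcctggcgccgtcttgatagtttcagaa
Gata2 window 1 at chr6:88193641-88193940 (+): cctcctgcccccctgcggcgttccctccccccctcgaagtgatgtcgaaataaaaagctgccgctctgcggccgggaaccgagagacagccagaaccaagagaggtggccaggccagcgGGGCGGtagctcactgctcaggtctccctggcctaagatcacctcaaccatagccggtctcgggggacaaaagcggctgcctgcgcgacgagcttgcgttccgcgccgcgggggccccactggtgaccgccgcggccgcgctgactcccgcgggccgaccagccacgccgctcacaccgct
Gata2 window 2 at chr6:88198414-88198713 (+): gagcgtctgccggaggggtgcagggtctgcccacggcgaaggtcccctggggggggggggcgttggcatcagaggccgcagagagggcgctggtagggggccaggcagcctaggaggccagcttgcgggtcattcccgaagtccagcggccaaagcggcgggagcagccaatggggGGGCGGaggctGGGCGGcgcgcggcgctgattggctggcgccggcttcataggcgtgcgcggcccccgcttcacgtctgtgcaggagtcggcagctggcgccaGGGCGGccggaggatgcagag
Pparg window 1 at chr6:115360894-115361193 (+): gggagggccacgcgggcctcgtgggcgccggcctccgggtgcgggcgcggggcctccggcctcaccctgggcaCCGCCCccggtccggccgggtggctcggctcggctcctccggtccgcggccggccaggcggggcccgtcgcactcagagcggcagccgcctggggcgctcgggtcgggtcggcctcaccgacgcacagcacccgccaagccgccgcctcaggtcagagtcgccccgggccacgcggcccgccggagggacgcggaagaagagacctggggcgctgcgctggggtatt
Pparg window 2 at chr6:115362099-115362398 (+): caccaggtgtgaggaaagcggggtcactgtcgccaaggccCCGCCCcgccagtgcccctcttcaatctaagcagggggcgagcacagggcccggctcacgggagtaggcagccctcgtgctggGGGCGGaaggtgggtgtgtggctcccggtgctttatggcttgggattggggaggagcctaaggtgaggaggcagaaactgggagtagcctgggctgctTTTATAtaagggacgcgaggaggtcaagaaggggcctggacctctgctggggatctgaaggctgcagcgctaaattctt
Pparg window 3 at chr6:115421816-115422115 (+): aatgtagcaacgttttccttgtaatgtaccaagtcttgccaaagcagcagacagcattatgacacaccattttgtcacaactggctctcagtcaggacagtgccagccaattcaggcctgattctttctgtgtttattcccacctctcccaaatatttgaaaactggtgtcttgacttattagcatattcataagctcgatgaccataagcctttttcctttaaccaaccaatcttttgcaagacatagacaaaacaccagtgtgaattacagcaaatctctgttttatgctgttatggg
Grhl3 at chr4:135573583-135573882 (-): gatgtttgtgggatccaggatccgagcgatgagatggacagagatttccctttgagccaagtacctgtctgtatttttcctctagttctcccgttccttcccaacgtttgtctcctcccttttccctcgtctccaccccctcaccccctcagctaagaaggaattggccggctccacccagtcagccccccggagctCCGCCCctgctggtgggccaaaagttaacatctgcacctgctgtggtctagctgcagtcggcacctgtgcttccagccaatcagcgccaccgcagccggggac

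A GC box, known as a site for Sp and Klf factors, was found in 8 of the 10 members' windows, beside 35.7% of the 32851 promoter windows in the table. Those 8 windows belong to 6 genes. They are 58.3% to 80.3% G and C, above the median of all windows. The Elf3 window, at 59.0%, has no GC box. The shares were not adjusted for G and C content. It is in the windows printed for Gata3, Gata2 and Grhl3 and in the first 2 for Pparg, and equally in those of Foxa1 and Sox2, which were not highest in replicate 3. The letters of GATA factors are in 0 of the 10 windows, beside 9.05% and 11.2% of all windows for TGATAA and AGATAA. The second Pparg window also matches the letters TATAAA on the reverse strand, 29 bases before the start, beside 13.6% of all windows. The match alone does not give the direction of a start element. The first Pparg window is 80.3% G and C, the second 62.7% and the third 40.3%, against a median of 52.7% over all windows. The third, farthest downstream, is the start known for the Pparg form of fat cells, and none of the letters searched are in it. The array does not tell these starts apart. Among the members not printed, the Foxa1 window holds the forkhead letters, beside 3.65% of all windows, and the Elf3 window holds none of the letters searched.

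The ETS factors of epithelia were both expressed. Ehf had 15.47, 15.36, 15.43 and 15.06 in replicates 1 to 4, with a mean of 15.33 ± 0.19 (SD, n = 4), the smallest SD of the 10 genes. Elf3 had 11.63, 11.30, 10.65 and 11.15, a mean of 11.18 ± 0.41 (SD, n = 4). Both SDs lay below those that limma expects at the genes' levels, 0.28 for Ehf and 0.46 for Elf3. Elf3 was lowest in replicate 3, as were 34.4% of all genes above background. It was the only one of the 10 genes with its low there as deposited, and 1 of 4 after quantile normalization. Among their ETS relatives Elf5, a factor of glandular epithelium, averaged 13.00 ± 0.60 and Ets1, also known from vessels, 12.28 ± 1.00, while Spdef at 7.42 ± 1.37 was not above background.

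Grhl3, a grainyhead factor needed for terminal differentiation of umbrella cells, had 11.19, 11.30, 11.56 and 10.98, a mean of 11.26 ± 0.24 (SD, n = 4). The samples lay close together, with replicate 3 slightly above the rest. Both other grainyhead genes were above background too, Grhl1 at 13.60 ± 0.40 and Grhl2 at 13.39 ± 0.32, and both were lowest in replicate 3, at 13.06 and 13.01. Klf5, a zinc finger factor of proliferating epithelium that smooth muscle also uses, had 12.14, 12.20, 12.87 and 13.28, a mean of 12.62 ± 0.55 (SD, n = 4). It was higher in replicates 3 and 4 than in replicates 1 and 2. Klf4, which acts in differentiating epithelium, went differently, with 14.71, 14.44, 13.42 and 14.16 and its lowest value in replicate 3. Among relatives of the members above background 12 of 18 were lowest in replicate 3, beside 34.4% of all genes above background.

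Sox2, a factor of stem cells and of several stratified epithelia, was expressed in every sample, with 13.82, 12.89, 13.32 and 13.58 and a mean of 13.40 ± 0.40 (SD, n = 4). Replicate 2 was lowest and replicate 1 highest. Sox2 is also known from Schwann cells. In that marker list, 2 of 6 measured genes were above background, Mbp at 12.51 ± 0.48 and Erbb3, a receptor that epithelia use as well, at 14.73 ± 0.39. The glial factor Sox10 at 7.71 ± 1.26 and S100b at 7.48 ± 1.49 did not pass. The summed intensity of the list, most of it from Erbb3, lay between 26780 and 40510. In replicate 2, where Sox2 was lowest, Sox10 was lowest too at 5.92, while S100b at 8.61 and Cdh19 at 7.45 were highest there, and none of these glial genes was above background. The part of glial cells in the Sox2 level was not tested.

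The scatter of the 10 genes between samples lay on both sides of that of a typical gene. Their SD ranged from 0.187 to 1.29 with a median of 0.403, against a median of 0.408 over the 10524 genes above background, and 5 of the 10 lay below that median. Of the 10, 0 passed the spread test after adjustment, and of all probe sets above background 0.0% did. At an unadjusted p under 0.05 there was 1, Pparg, beside 6.27% of probe sets. Only Pparg spanned over 2 log2 units, beside 9.82% of genes above background.

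Which sample was high depended on the gene. Grhl3, Pparg, Gata3 and Gata2 were highest in replicate 3, which is 4 of 10, beside 27.5% of all genes above background. Foxa1, Elf3, Ehf and Sox2 were highest in replicate 1, beside 23.0%. Trp63 was the only member highest in replicate 2, beside 25.3%, and Klf5 the only one highest in replicate 4, beside 24.1%. Trp63, Foxa1, Grhl3 and Ehf were lowest in replicate 4, beside 22.7% of genes, and Pparg, Gata3 and Sox2 in replicate 2, beside 23.5%. Gata2 and Klf5 were lowest in replicate 1, beside 19.4%. For Trp63, Foxa1 and Ehf the low rank of replicate 4 rests on the scaling, since after quantile normalization it lay -0.001, 0.03 and -0.01 from the mean of the others. The low sample of these 3 genes was then replicate 3, at -0.27, -0.17 and -0.02, which with Elf3 makes 4 of 10, beside 38.7% of all genes above background. The median of replicate 3 over the members was 0.24 above the mean of the other samples, and that of replicate 4 was -0.23, against -0.05 and 0.05 over all genes above background. After quantile normalization the members' medians were 0.18 and -0.01. With each gene's probe sets averaged, the median of replicate 3 was 0.71, that of replicate 2 was -0.44, against 0.02 with the highest probe set, and that of replicate 1 was -0.47, against -0.12.

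**Figure D2:**
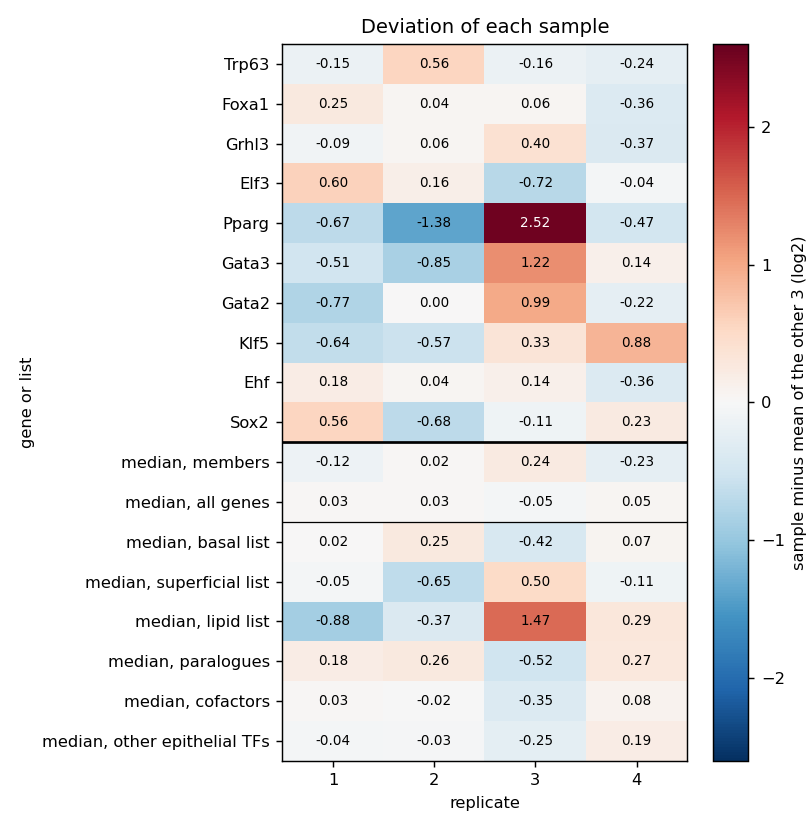
Each sample's level minus the mean of the other 3 samples, in log2 units, for the 10 genes (top), their median and that of all genes above background (middle), and the medians of 6 gene lists over their genes above background (bottom). Replicate 3 holds the strongest colours, 2.52 for Pparg and 1.47 for the lipid list, while the lists of paralogues, cofactors and other epithelial factors are below 0 there.

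Genes of the superficial layer and genes of the basal layer lay on opposite sides in replicate 3. The median of the superficial list there was 0.50 above the other samples (0.31 after quantile normalization), beside Pparg, Gata3 and Gata2, and that of the basal list was -0.42 (-0.39). The basal list was not alone in this. Replicate 3 medians were also negative for paralogues (-0.52), cofactors (-0.35), other epithelial factors (-0.25), epidermis (-1.46), mesothelium (-1.33) and endothelium (-1.74). They were positive for the lipid (1.47), collecting duct (1.01), smooth muscle (0.19) and lacrimal and salivary gland (3.55) lists. Of all genes above background 34.4% were lowest in replicate 3. Of 13 superficial genes 10 were above background (76.9%, beside 57.8% of all named genes). Upk1a, a uroplakin of the umbrella cell plaque, was highest in replicate 3 at 11.35, and so were Upk1b at 15.73 and Upk2 at 10.33. In all 9 of the 13 measured genes were highest there, and the exceptions were Krt19, Psca, Cldn4 and Tgm1. Of the 10 above background 7 were highest in replicate 3 (70.0%), beside 27.5% of all genes above background. Among them is Upk3b, which is also in the mesothelium list. Upk3a and Krt20, markers of mature umbrella cells, reached 14.91 and 11.69 in replicate 3 alone, and neither passed the test of the mean, nor did Tgm1. Pbsn, a prostate secretory gene, and Hoxb13, a homeobox gene of prostate, were also highest in replicate 3, at 15.41 and 10.70. Of 8 prostate and seminal vesicle genes Pbsn alone was above background, and of 8 lacrimal and salivary gland genes 4 were. The part of epithelium from other organs in these values was not tested.

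Lipid genes linked to Pparg were high in the sample where Pparg was high. Of 8 measured genes 7 were above background (87.5%, beside 57.8% of all named genes), with a median of 1.47 in replicate 3. Plin2, a lipid droplet coat gene, had 14.19 in replicate 3, against 11.69 to 12.08 in the others, and Fabp5, an epithelial fatty acid binding protein gene, had 16.10, against 12.51 to 14.00. Fabp4, a relative of Fabp5 in fat cells, capillaries and urothelium, had 14.93 against 7.06 to 8.33 and did not pass the test of the mean. Lpl had 12.54 in replicate 3 and 10.96 in replicate 4, against 9.04 and 9.13 in replicates 2 and 1. Pdk4, a brake on glucose oxidation, and Cd36, a fatty acid transporter, also peaked in replicate 3, at 12.15 and 11.12. In all 6 of the 8 genes were highest there (7 after quantile normalization). Of the 7 above background 5 were (71.4%), beside 27.5% of all genes above background. The others were highest in replicate 4, Angptl4 at 9.10 and Cpt1a at 11.49, with Cpt1a at 11.48 in replicate 3.

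Fat cells also use Pparg. Of 8 measured adipocyte genes 2 were above background, Cebpa and Adipor2, neither of which is particular to fat. The summed intensity of the list was 19870 in replicate 3, against 11440 to 14530 in the others. Most of it came from Adipor2 in every sample, so the sum says little about fat cells. Adipoq, which defines fat cells, had 7.77 in replicate 3, against 4.54 to 5.77 in the others, and its threshold there was 7.57. Of the 8 genes 4 lay over the threshold in replicate 3, against 3 in each other sample: Adipoq, Cebpa at 11.15, Adipor2 at 14.06 and Lipe, a lipase of fat and other tissues, at 7.96. Lep at 5.04, Cidec at 4.70, Retn at 5.47 and Pck1 at 6.43 lay below it. Adipoq, Cebpa, Adipor2 and Pck1 were highest in replicate 3, which is 4 of 8 (3 after quantile normalization), and Lipe was highest in replicate 4 at 8.66. Skeletal muscle genes summed to 219100 in replicate 3, against 553.6 to 665.7 in the others, and the part of muscle, and of any fat with it, in the Pparg level was not tested.

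**Figure D3:**
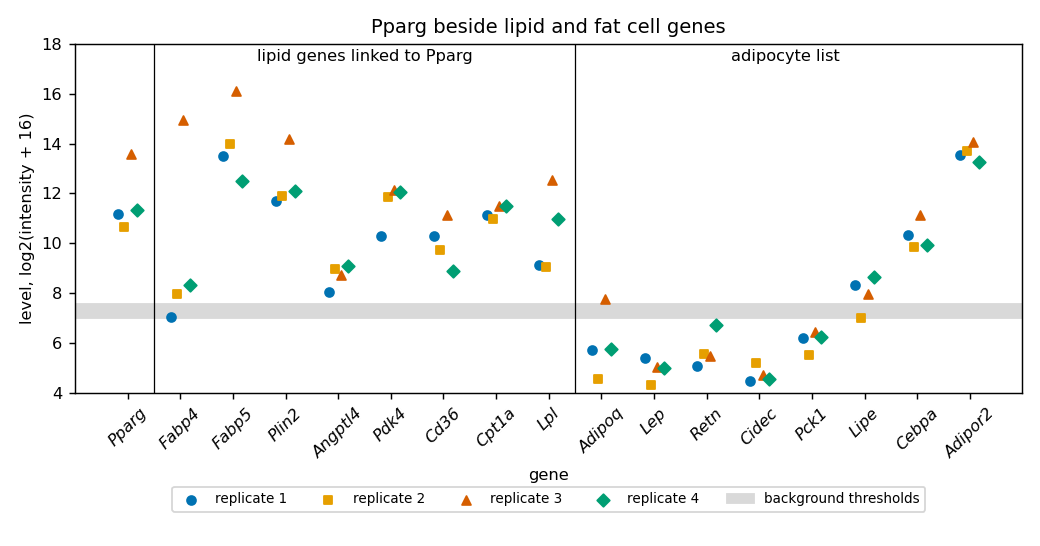
Level, as log2(intensity + 16), of Pparg (left), of 8 lipid genes linked to it (middle) and of 8 adipocyte genes (right) in each of the 4 samples, with the range of background thresholds in grey. Replicate 3 stands above the other samples for Pparg, Fabp4, Fabp5 and Plin2, and the fat cell genes Lep, Retn, Cidec and Pck1 lie below the band in every sample.

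Markers of other cell types that use GATA factors went different ways in replicate 3, where Gata3 and Gata2 were high. The endothelial list, with 11 of 12 genes above background, had a median of -1.74 in replicate 3 and a summed intensity of 8960, against 22920 to 41930 in the others. Cdh5 had 9.84 in replicate 3, against 11.73 to 12.45, and Kdr had 9.71, against 9.56 to 10.36. Of 8 mast cell genes 1 was above background, Kit, and Cpa3 at 5.98 ± 1.41 and Mcpt4 at 4.72 ± 0.30 were not. The mast cell list summed to 1760 in replicate 3, against 1131 to 1443, and most of each sum came from Kit. Of 7 T lymphocyte genes 0 were above background by limma (1 at an unadjusted p under 0.05), although 1 was without replicate 3, and the list summed to 691.7 in replicate 3, against 777.2 to 3006, with Cd3e at 5.84 and Cd3g at 7.74 there. In the list for the kidney collecting duct, where Gata3 is also active, 3 of 8 genes passed, namely Aqp3, Scnn1b and Scnn1g. The median of these 3 genes alone was 1.01 in replicate 3. Aqp2, which defines that duct, did not pass at 7.57 ± 0.85, and was highest in replicate 3 at 8.46. Avpr2, Hsd11b2, Atp6v1b1 and Slc4a1 did not pass either. The part of kidney tissue in these values was not tested.

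Several genes differed by probe set. Of 4 members with more than 1 probe set, 3 had probe sets on both sides of the background call, beside 51.6% of such genes. For Klf5, 1451739_at had 6.85, 6.01, 10.83 and 10.47 in replicates 1 to 4, high in replicates 3 and 4 and below the threshold in replicates 1 and 2, with no call for the mean (limma adjusted p = 0.156). The third Klf5 probe set, 1430255_at, was below the threshold in every sample. The Klf5 call rests on 1451021_a_at, which matches several transcripts of the gene, and Klf5 was not above background without probe sets of that kind. For Ehf, 1419475_a_at had 10.61, 10.76, 11.55 and 12.59, highest in replicate 4, where 1451375_at was lowest before quantile normalization. The pair of Ehf probe sets 1419474_a_at and 1419475_a_at was above background, and 1447760_x_at at 7.14 ± 0.27 was not. Replicates 3 and 4, where 1451739_at of Klf5 and 1452027_a_at of Trp63 were higher, also had the lowest 3′ to 5′ ratios of Actb (5.27 and 4.43) and of Gapdh (31.6 and 18.8). The part of RNA integrity or of amplification in these differences was not tested.

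**Figure D4:**
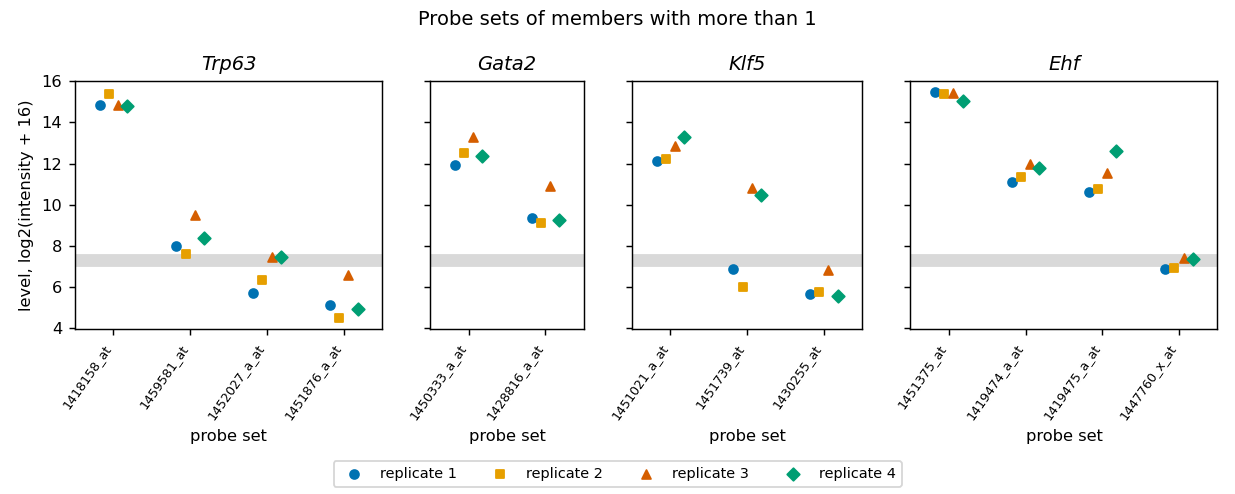
Level, as log2(intensity + 16), of every probe set of the 4 genes with more than 1, in each of the 4 samples, with the range of background thresholds in grey. The Klf5 probe set 1451739_at splits into replicates 3 and 4 above 10 and replicates 1 and 2 below the band, while the brightest probe sets of Trp63 and Ehf keep the samples close together.

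The relatives and partners of these factors were measured too. Of 28 paralogues 18 were above background (64.3%, beside 57.8% of all named genes), and those that did not pass were Trp73, Foxa2, Foxa3, Elf4, Spdef, Ppara, Gata1, Gata4, Gata5 and Sox15. Trp73, the p73 relative of Trp63, had 7.21 ± 0.57. Of 20 cofactors 15 passed (75.0%). Rxra, the receptor that pairs with Pparg on DNA, had 12.41, 12.55, 12.16 and 12.62, a mean of 12.44 ± 0.20, so it was lowest in the sample where Pparg was highest. Rxrb averaged 11.82 ± 0.47, and Rxrg at 6.65 ± 1.57 was not above background. Of 19 other epithelial transcription factors 14 passed (73.7%), among them Zfp750 at 11.02 ± 0.18, a p63 target that drives terminal differentiation, and Ovol1 at 9.20 ± 0.74 and Ovol2 at 9.66 ± 0.87, which keep cells epithelial.

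Some genes followed the members closely over the 4 samples. Likeness was the root mean square distance between 2 genes' levels, each centred on its own mean, among 10514 other genes above background. Nearest to Pparg were Tbx2, a T-box factor, at 0.0847 log2 units, Phgdh, an enzyme of serine synthesis, at 0.119 and Hyou1, a chaperone, at 0.120, and 11 genes lay within 0.25. Tbx2 had 11.89 in replicate 3, against 9.18 to 9.79 in the others. Nearest to Gata2 were Ppm1h (0.0447), the uroplakin gene Upk1b (0.0507) and Pole (0.0545), and nearest to Gata3 were Bzw1 (0.0457), Hdhd3 (0.0492) and Nudt5 (0.0512), with 330 and 263 genes within 0.25. For Trp63, whose samples differ little, Rgs12 (0.0176), Rgs19 (0.0257) and Setd7 (0.0269) were nearest and 1631 genes lay within 0.25. Among the members themselves Foxa1 and Ehf were the closest pair at 0.0391, and Elf3 and Pparg the farthest apart at 1.43. Foxa1 and Ehf shared a dip of -0.36 in replicate 4, which after quantile normalization was 0.03 and -0.01. The distance is that of each gene's brightest probe set, and the Ehf probe set 1419475_a_at was instead highest in replicate 4. These distances rest on 4 samples and are given as a description.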

How the data were processed

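Per the submitters' processing notes, the authors processed the arrays with GCOS, Affymetrix's operating software. Its version is not given in the sources used here, nor is its algorithm. The deposited values are 1 linear intensity per probe set and array, unpooled. The mean intensity after trimming 2% of probe sets at each end was 1500 on every array, which shows scaling per array, and nothing further was scaled. All 4 columns were matched to samples.

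Of 45101 probe sets, 64 controls were left out. By the platform's annotation, 34945 probe sets have 1 symbol, 932 several and 9160 none, and only the first were named. Levels were log2(intensity + 16), which compresses differences among dim probe sets. Tests used limma 3.58.1 in R 4.3.3. The background test used trended, robust moderation over 45037 probe sets. The spread test was an F test with 3 and 5.24 degrees of freedom over the probe sets above background, and it cannot see spread that most probe sets share. Both were run on simulated data. The raised spread set there was larger than that of any member, so power at the members' spread was not examined. The members and the lists were chosen with earlier results of these data known. The named genes are the members, the first 3 measured genes of each list, the genes above background of lists with 3 or fewer, and the nearest genes to Trp63 and to the 3 members of largest SD. All other genes were named after their values were seen. Members were compared with other genes by counts and medians, with no test of a list. Alternatives tried were quantile normalization, pseudocounts of 1 and 64, other backgrounds, other handling of probe sets, no filter, a prior without robust estimation, and leaving out each sample.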

Additional observations from a re-analysis of the deposited data

Results flagged for a closer look

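Of 87 sets of 4 values examined, 8 had 1 sample far from the other 3, by Dixon's gap test at 95%, and chance flags about 1 set in 20. Trp63 was high in replicate 2 at 15.39, against 14.79 to 14.86 in the others. Rgs12 at 12.67 and Rgs19 at 10.10 were also high in replicate 2, and both were chosen for their likeness to Trp63. In replicate 3 the second Gata2 probe set, 1428816_a_at, was high at 10.93, against 9.11 to 9.34, and the Klf5 probe set 1430255_at was high at 6.84, against 5.54 to 5.76, below the array's threshold. Fabp4 at 14.93, Plin2 at 14.19 and the skeletal muscle gene Myh4 at 16.39 were also high in replicate 3.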

How the results depend on the processing

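All 10 members were above background under both other pseudocounts, quantile normalization, both other backgrounds and a call without a test. The same held with any 1 sample left out. Averaging a gene's probe sets changed its levels only, and the background calls were carried over rather than tested again. Leaving out the probe sets whose suffix marks matches to several transcripts, Pparg and Gata2 could not be measured, and 7 of the other 8 passed. The exception was Klf5, 1.25 log2 units over the threshold on average (limma adjusted p = 0.156). No member passed the spread test under any alternative run. In the main run no probe set at all passed, and the smallest adjusted p was 0.0654 (F test, limma prior). The lack of passing members therefore does not show that their levels were steady. The members' median deviation was -0.444 in replicate 2 and 0.707 in replicate 3 with probe sets averaged, where a gene's dim probe sets weigh as much as its bright ones. With single samples left out, it ranged from -0.253 to 0.118 in replicate 1, from -0.128 to -0.00789 in replicate 2, from 0.167 to 0.193 in replicate 3 and from -0.317 to -0.0705 in replicate 4. Without replicate 4 the liver list had 4 genes above background, against 2 with all samples, and without replicate 1 or 3 it had 0. At the median plus 3 median absolute deviations 7165 named genes passed, against 10524. No paired analysis was possible because there is 1 group.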
